A study of Homo sapiens and Mus musculus with 24 samples.

Results

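The mRNAs of 10 enzymes of the glycolytic pathway were followed through UPA-seq, in which cells were or were not irradiated with UV light and the RNA in the aqueous phase of a phenol extraction was sequenced. The members were GPI, PFKL, ALDOA, TPI1, GAPDH, PGK1, PGAM1, ENO1, PKM and LDHA, 10 of the 58381 genes listed for human and 9 of the 53715 listed for mouse, where the symbol without regard to case found no gene for GPI. They were chosen by name, after the GAPDH mRNA had been seen to be higher in irradiated samples, to ask whether the other enzymes of its pathway shared that change. The log2 change upon irradiation is therefore the measure behind the choice of GAPDH, and it is given for all members as a description with its standard error (SE) and without a p-value. Levels describe the RNA left in the aqueous phase relative to most other genes there, and a higher level need not be a larger share of all counts, while fewer cells and less RNA per cell cannot be told apart in bulk samples.

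Glycolysis converts glucose to pyruvate in the cytosol and yields ATP and NADH. Its upper steps phosphorylate and rearrange the sugar and split it into triose phosphates, and its lower steps oxidize these, recover ATP and end at pyruvate. Lactate dehydrogenase then turns pyruvate into lactate and restores NAD+, which GAPDH needs. The enzymes are abundant in nearly all cells, and GAPDH mRNA is a common reference for the amount of RNA, for which the study listed primers and a probe. UV light joins RNA to proteins that touch it, most readily at uridines, and RNA joined to protein leaves the aqueous phase for the interphase.

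HepG2 is a human hepatocellular carcinoma line, HEK293 a human embryonic kidney line, Neuro2a a mouse neuroblastoma line, and HippCulture a primary culture of mouse hippocampal neurons taken at E16.5 from C57/BL6NCr embryos and treated with AraC against glia. Each cell type had 3 UV-irradiated and 3 nonirradiated samples, 24 in all, and irradiation was the only treatment that differed within a cell type. The study calls its replicates biological, and the sources used here do not say which culture or embryos each sample came from. HepG2 was sequenced on another instrument model than HEK293, and instrument and cell type cannot be told apart between them.

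Sequences that the study listed for GAPDH are shown, and the mouse pair marks the part of mouse Gapdh mRNA that RT-qPCR with it reads. The RT-qPCR of GAPDH that the paper reports upon irradiation was in human HepG2 cells, which this pair does not describe. There the paper found GAPDH mRNA much less affected than the lncRNA MALAT1. The RT-qPCR primers for mouse Gapdh lie at chr6:125165291-125165311 (forward) and chr6:125163378-125163397 (reverse) of mm10, on the minus strand, in coding exons 2 and 3 of 7, and span 100 bases of the mRNA. The pair listed for a human GAPDH probe for FISH lies at chr12:6537183-6537210 and chr12:6537364-6537389 of hg38, on the plus strand, in coding exons 6 and 7 of 9, and spans 115 bases. The human reverse sequence is listed in the sense of the mRNA and the mouse one opposite to it. As listed, the human pair would not amplify the stretch between its ends. All are written 5′ to 3′ as listed.
Mouse Gapdh forward: cctcgtcccgtagacaaaatg
Mouse Gapdh reverse: tctccactttgccactgcaa
Human GAPDH forward: atgagaagtatgacaacagcctcaagat
Human GAPDH reverse: aactttggtatcgtggaaggactcat

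The mouse forward primer had 42 exact matches in the genome and the reverse primer 11, against 6 and 7 for the human sequences, which are places that match as letters and not places that are transcribed. Both mouse primers lay in 7 of the 13 annotated Gapdh transcripts and both human sequences in 10 of 11 GAPDH transcripts. Of 65 named GAPDH pseudogenes in human, all copies together held at most 0.674% of the GAPDH count in any HepG2 or HEK293 sample. In mouse only 2 genes were named as copies of Gapdh, and neither held a count. Copies under other names are not covered by this count. The count commands name no option for reads with several matches. How many such reads GAPDH or its copies lost or gained is not known, in human or mouse.

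The most uridine-rich stretches of the mRNAs are shown for the human members GAPDH and TPI1, which changed most upon irradiation and have the shortest transcripts, and for PGK1 and GPI, which changed less and have the longest. Each is the window of 24 bases with the most uridines in the annotated transcript, with uridines as capital T.
GAPDH: TggTTTacaTgTTccaaTaTgaTT
TPI1: TgTaTcTTccTTTacTgTTTaTaT
PGK1: TTcacTTcTTTTTTTTTTaTTTTT
GPI: TTTTTTTTTTTTTTTTgacaacTT

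The GAPDH window held 11 uridines and lay in the coding sequence, across the junction of exon segments between chr12:6536592-6536705 of hg38. The TPI1 window held 14 and lay in the 3′ UTR at chr12:6870512-6870535. The PGK1 window at chrX:78126639-78126662 held 19, with a run of 13, and the GPI window at chr19:34401028-34401051 held 18, with a run of 16, both in the 3′ UTR. The windows of the human members not shown held 13 (ENO1), 12 (PKM), 11 (ALDOA), 14 (LDHA), 15 (PGAM1) and 9 uridines (PFKL). PFKL, with the fewest, changed less than most members, and PGAM1 in HepG2 changed more than most. Whether protein bound any of these stretches was not tested.

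The samples held 6910907 to 53511592 counts on genes. Irradiated samples differed in composition from nonirradiated ones in every cell type, and the 10 genes with the most counts took 20.7% and 40.1% of the HepG2 counts, 9.91% and 23.0% of the HEK293 counts, 23.9% and 48.4% of the Neuro2a counts and 25.9% and 46.2% of the HippCulture counts (means of the nonirradiated and of the irradiated samples). The share on protein-coding genes was 77.0% and 54.2%, 84.1% and 71.4%, 75.7% and 55.9% and 74.5% and 58.4% in the same order. Levels below are counts relative to the library total (CPM) scaled by TMM, which sets most genes level between samples. The median log2 change of all tested genes was then −0.08, −0.08, −0.14 and −0.04 for HepG2, HEK293, Neuro2a and HippCulture, an order kept below wherever 4 values stand together, and −1.38, −0.84, −1.32 and −0.59 with library size alone. The direction of a change depends on this choice for several members, and its value with library size alone is given where the sign turns. Markers, given as CPM of the library total without TMM, matched the labels, with hepatocyte genes summing to 50300 to 55800 CPM in nonirradiated HepG2 and to at most 3.46 CPM in HEK293. Of 5 neuroblastoma markers, 4 exceeded 1 CPM in nonirradiated Neuro2a. In nonirradiated HippCulture, neuron markers summed to 3260 to 3660 CPM, astrocyte markers to 572 to 672 CPM and oligodendrocyte markers to 24.6 to 34.0 CPM. In irradiated samples hepatocyte markers summed to 30900 to 32000 CPM in HepG2, and neuron, astrocyte and oligodendrocyte markers to 1690 to 2230, 482 to 618 and 12.3 to 14.5 CPM in HippCulture. Mitochondrially encoded genes took a median of 8.58% of the counts in nonirradiated and 20.6% in irradiated HepG2, and 0.543% and 0.652%, 1.77% and 3.95% and 1.57% and 3.77% in the other cell types, with overlap between the groups in HEK293. The part of these shifts in the changes below was not tested.

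GAPDH mRNA, which encodes the enzyme that oxidizes glyceraldehyde 3-phosphate and makes NADH, had higher levels in the irradiated samples of all 4 cell types, with no overlap between the groups. In HepG2 it was at 1445, 1726 and 1697 CPM in the nonirradiated and 6794, 6701 and 6353 CPM in the irradiated samples, 4.08-fold higher on average (log2 2.03, SE 0.11). HEK293 had 1948, 2083 and 1904 CPM in the nonirradiated and 4747, 5180 and 5202 CPM in the irradiated samples (log2 1.35, SE 0.12). The lowest irradiated human sample stood at 4747 CPM and the highest nonirradiated one at 2083 CPM. Mouse Gapdh was at 291, 364 and 341 CPM in the nonirradiated and 829, 1056 and 1171 CPM in the irradiated samples in Neuro2a (log2 1.62, SE 0.13). HippCulture had 162, 214 and 162 CPM in the nonirradiated and 390.0, 375 and 362 CPM in the irradiated samples (log2 1.07, SE 0.10). With library size alone the change was 0.72, 0.59, 0.42 and 0.51 in the 4 cell types, the same direction in each.

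The other members shared the direction of GAPDH with TMM scaling. The SEs given for HEK293 come from fits that did not pair its samples. With the replicate number as a block they were smaller, such as 0.07 rather than 0.21 for ENO1 and 0.08 rather than 0.27 for PGAM1. The edgeR threshold was passed upward by 10 of 10 members in HepG2, 9 of 10 in the other human line, 9 of 9 in Neuro2a and 8 of 9 in HippCulture, counts that the choice of members allows to be read only as a description. The share of all genes tested that was called higher was 38.1%, 24.2%, 28.9% and 26.1%, and that of protein-coding genes 45.9%, 27.9%, 33.3% and 30.9%. These shares are with TMM. With library size alone, 4, 3, 2 and 2 members were called higher, and LDHA and GPI in HepG2, GPI in HEK293 and Pkm, Pgam1 and Pfkl in Neuro2a were called lower. The share of all genes called with library size alone was not counted, here or below. The median change of all genes was then −1.38, −0.84, −1.32 and −0.59. The median log2 change of the members was 1.38, 0.90, 1.23 and 0.70. Against the median of all tested genes, the members' median stood 1.46, 0.98, 1.37 and 0.74 higher with TMM and 1.46, 0.98, 1.35 and 0.72 higher with library size alone. A change of scaling moves all genes of a cell type by nearly the same amount, so this distance could hardly depend on it. The sign of several members did. The distance did depend on the filter for low counts. With at least 10 counts in every sample it was 1.11, 0.79, 1.09 and 0.61, and with no filter 1.98, 1.40, 1.96 and 0.82.

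**Figure D1:**
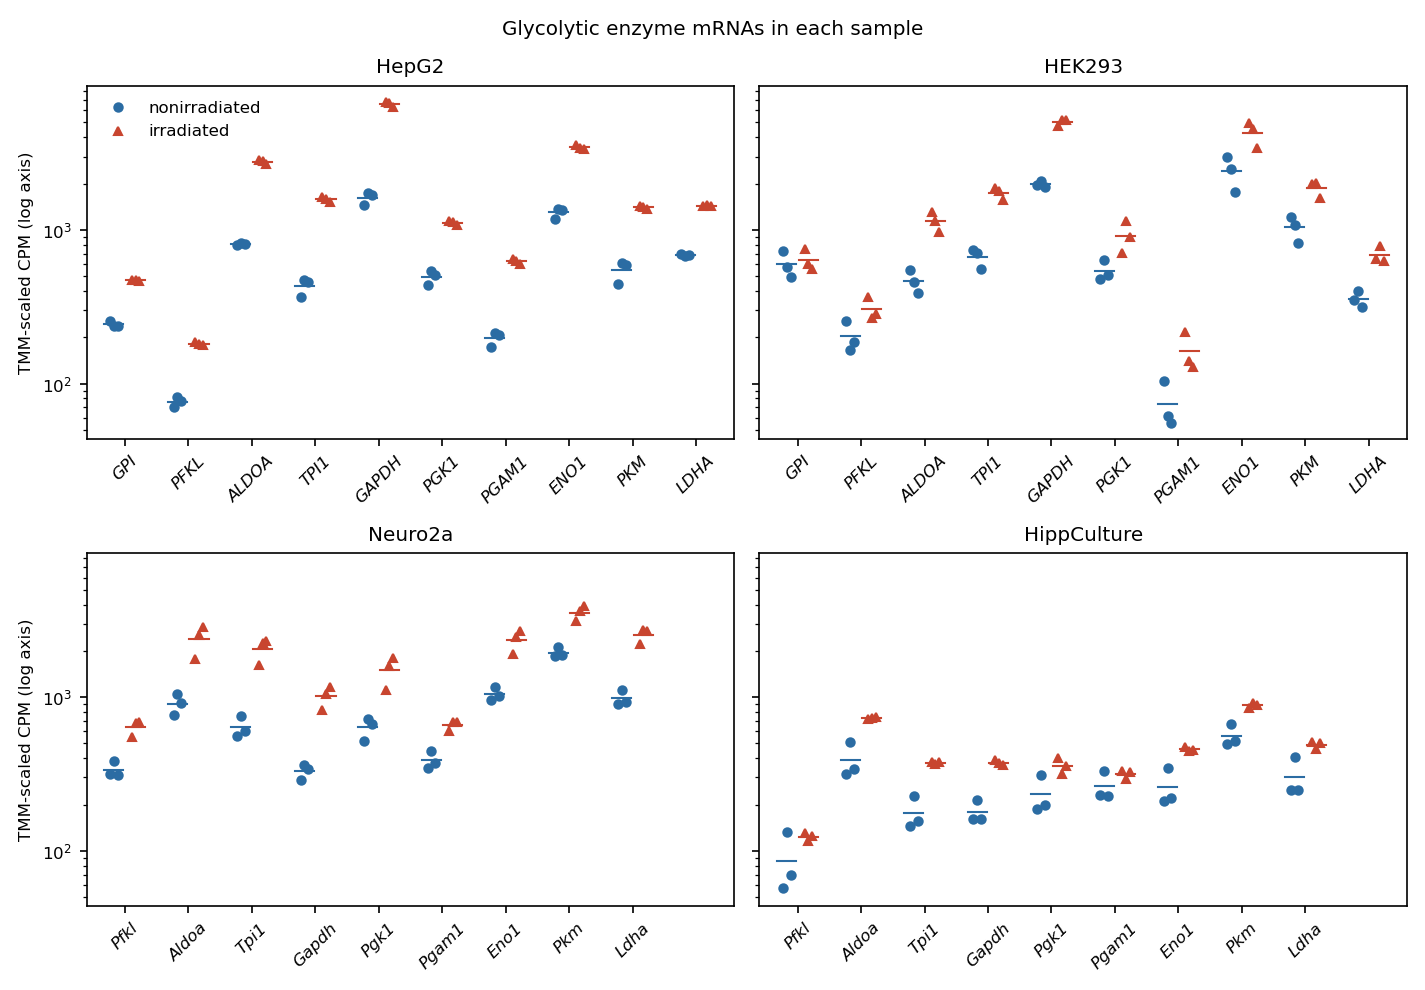
TMM-scaled CPM (log axis) of each glycolytic enzyme mRNA in pathway order, with a point for every sample and a line at the mean of 3 nonirradiated (blue circles) or 3 irradiated (red triangles) samples. With this scaling the groups overlap only for GPI in HEK293 and for Pfkl and Pgam1 in HippCulture, and with library size alone the change of PGK1, LDHA, PFKL and GPI in HepG2, PFKL and GPI in HEK293, Eno1, Pkm, Pgam1 and Pfkl in Neuro2a and Pfkl and Pgam1 in HippCulture is below 0.

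All irradiated samples lay above all nonirradiated samples for all 10 members in HepG2, 9 of the 10 in HEK293, all 9 in Neuro2a and 7 of the 9 in HippCulture. The same held for 39.6%, 27.1%, 30.4% and 29.3% of all genes tested in these cell types. The shares of counts give the same data without TMM. The members together took 1.01% and 1.25% of all counts on genes in nonirradiated and irradiated HepG2, and 1.08% and 1.29%, 1.09% and 1.10% and 0.300% and 0.341% for the other cell types. Of the counts on protein-coding genes they took 1.31% and 2.31%, 1.29% and 1.80%, 1.44% and 1.97% and 0.400% and 0.583%. The rise of the mean was larger within the protein-coding counts than within all counts in each cell type, and smallest within all counts in Neuro2a. Within all counts the groups overlapped in Neuro2a, at 0.980% to 1.238% nonirradiated and 0.945% to 1.207% irradiated. They also overlapped in HippCulture, at 0.235% to 0.406% and 0.289% to 0.374%. The rise of these means lies within the spread of the samples.

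Ranks need no scaling. Among protein-coding genes tested, GAPDH stood at percentiles 96.2, 92.8, 94.3 and 93.2 of the log2 changes. TPI1, which interconverts the triose phosphates and lies just before GAPDH in the pathway, stood at 94.4, 93.4, 95.4 and 93.7. The lowest members were GPI at 74.1 and 53.3 for the human lines and Pgam1 at 76.1 and 62.3 for the mouse cells.

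TPI1 and ALDOA were the members nearest to GAPDH. In HepG2, TPI1 was at 367, 469.5 and 457 CPM in the nonirradiated and 1644, 1581 and 1519 CPM in the irradiated samples (log2 1.88, SE 0.11). In HEK293 it had 740.2, 708 and 554 CPM in the nonirradiated and 1887, 1797 and 1568 CPM in the irradiated samples (log2 1.39, SE 0.16). Neither cell type had overlapping groups, and the irradiated mean was at least 2.62 times the nonirradiated one in both. Mouse Tpi1 was at 559, 751 and 606 CPM in the nonirradiated and 1624, 2256 and 2310 CPM in the irradiated samples in Neuro2a (log2 1.69, SE 0.15). HippCulture had 146, 226 and 157 CPM in the nonirradiated and 381, 365 and 381 CPM in the irradiated samples (log2 1.09, SE 0.12). TPI1 kept its direction with library size alone in every cell type, at 0.57, 0.63, 0.49 and 0.53.

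ALDOA encodes the aldolase that splits fructose 1,6-bisphosphate into triose phosphates. It was at 796, 818 and 813 CPM in the nonirradiated and 2849, 2811 and 2689 CPM in the irradiated samples in HepG2 (log2 1.78, SE 0.09). HEK293 had 546, 459 and 388 CPM in the nonirradiated and 1308, 1139 and 965 CPM in the irradiated samples (log2 1.29, SE 0.17). The HEK293 samples spread more than those of HepG2 in both groups. Neuro2a had 761, 1054 and 910.4 CPM in the nonirradiated and 1763, 2554 and 2876 CPM in the irradiated samples (log2 1.40, SE 0.17). In HippCulture, nonirradiated replicate 2 stood apart, with 317, 512 and 340.1 CPM in the nonirradiated and 718, 733 and 743 CPM in the irradiated samples (log2 0.91, SE 0.13). A further mouse gene with the symbol Aldoa (ENSMUSG00000114515) had at most 3.83 CPM in any sample and a log2 change of 0.14 (SE 0.28) in Neuro2a and −0.31 (SE 0.34) in HippCulture, and it is not counted among the members.

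GPI and PFKL act above aldolase, and they had the smallest changes in HEK293. GPI isomerizes glucose 6-phosphate to fructose 6-phosphate. It was at 255, 237 and 236 CPM in the nonirradiated and 472, 474 and 465 CPM in the irradiated samples in HepG2 with log2 0.95, SE 0.07, a change that turned to −0.35 with library size alone. In HEK293, the GPI groups overlapped, at 731, 571 and 497 CPM in the nonirradiated and 753, 604 and 559 CPM in the irradiated samples (log2 0.09, SE 0.18, −0.68 with library size alone). PFKL is the liver-type subunit of phosphofructokinase, the committed step of the pathway. It was at 70.5, 81.8 and 76.7 CPM in the nonirradiated and 188, 180.1 and 177 CPM in the irradiated samples in HepG2 (log2 1.25, SE 0.08, −0.06 with library size alone). HEK293 had 257, 165 and 186 CPM in the nonirradiated and 365, 265 and 285 CPM in the irradiated samples (log2 0.59, SE 0.20, −0.18 with library size alone). GPI and PFKL transcripts were long within the set, at 4125 and 2907 bases.

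Mouse Pfkl was at 317, 385 and 309.7 CPM in the nonirradiated and 552, 674 and 687 CPM in the irradiated samples in Neuro2a (log2 0.92, SE 0.12, −0.28 with library size alone). In HippCulture it was at 57.0, 132 and 69.5 CPM in the nonirradiated and 131, 116 and 124 CPM in the irradiated samples (log2 0.53, SE 0.19, −0.04 with library size alone). The HippCulture groups overlapped through nonirradiated replicate 2 alone, which lay above every irradiated sample. Without that sample the change of Pfkl was 1.00 (SE 0.10).

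Below GAPDH, PGK1 recovers ATP from 1,3-bisphosphoglycerate. Its level (mean ± SD, n = 3) went from 496 ± 54.2 to 1111 ± 33.4 CPM in HepG2 (log2 1.16, SE 0.10, −0.14 with library size alone) and from 539 ± 82.4 to 916 ± 222 CPM in HEK293 (log2 0.76, SE 0.20). Mouse Pgk1 went from 639 ± 106 to 1498 ± 351 CPM in Neuro2a (log2 1.23, SE 0.16) and from 234 ± 68.9 to 357 ± 41.5 CPM in HippCulture (log2 0.61, SE 0.14). The groups did not overlap in any cell type, although in HippCulture the highest nonirradiated sample stood at 313 CPM and the lowest irradiated one at 317 CPM.

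PGAM1, the phosphoglycerate mutase of most tissues, was the member that differed most between the human and the mouse cells. This difference was not tested, and species and cell type cannot be told apart in it. In HepG2 it was at 172, 213 and 206 CPM in the nonirradiated and 644, 629 and 600.5 CPM in the irradiated samples (log2 1.66, SE 0.10). HEK293 had 104, 61.7 and 55.6 CPM in the nonirradiated and 217, 141 and 128 CPM in the irradiated samples (log2 1.14, SE 0.27), with replicate 1 the highest in each group. The mouse gene changed less than most members. Neuro2a had 348, 448 and 370.4 CPM in the nonirradiated and 601, 688 and 686 CPM in the irradiated samples (log2 0.76, SE 0.11, −0.44 with library size alone). In HippCulture it was at 229, 331 and 228 CPM in the nonirradiated and 331, 293 and 327 CPM in the irradiated samples (log2 0.27, SE 0.11, −0.29 with library size alone). The HippCulture groups overlapped, and Pgam1 was the member that did not pass the threshold there.

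All levels of ENO1 and PKM below are means ± SD of 3 samples. ENO1, the enolase of most tissues, went from 1300 ± 101 to 3441 ± 99.2 CPM in HepG2 (log2 1.40, SE 0.10) and from 2403 ± 609.8 to 4293 ± 779.9 CPM in HEK293 (log2 0.84, SE 0.21). Mouse Eno1 went from 1042 ± 107 to 2347 ± 391 CPM in Neuro2a (log2 1.17, SE 0.13, −0.03 with library size alone) and from 259 ± 74.7 to 457 ± 13.8 CPM in HippCulture (log2 0.82, SE 0.13). PKM, whose pyruvate kinase makes pyruvate and ATP, went from 550.1 ± 89.1 to 1411 ± 33.5 CPM in HepG2 (log2 1.36, SE 0.12) and from 1041 ± 203 to 1880 ± 222 CPM in HEK293 (log2 0.85, SE 0.17). Mouse Pkm had a smaller change than the median member in both cell types. It went from 1947 ± 149.5 to 3553 ± 397 CPM in Neuro2a (log2 0.87, SE 0.11, −0.33 with library size alone) and from 557 ± 93.3 to 885 ± 33.1 CPM in HippCulture (log2 0.67, SE 0.10).

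LDHA, the lactate dehydrogenase subunit that favors lactate, was among the lowest members in HepG2 and above the median member in HEK293 and Neuro2a. HepG2 had 698, 673 and 689 CPM in the nonirradiated and 1441, 1456 and 1427 CPM in the irradiated samples (log2 1.07, SE 0.08, −0.23 with library size alone). HEK293 had 351, 402 and 316 CPM in the nonirradiated and 652, 789 and 624 CPM in the irradiated samples (log2 0.95, SE 0.15). The irradiated samples lay above the nonirradiated ones in both lines, and the HepG2 replicates lay closer together than those of HEK293. Neuro2a had 905, 1115 and 928 CPM in the nonirradiated and 2206, 2717 and 2714 CPM in the irradiated samples (log2 1.37, SE 0.12), and HippCulture had 250.3, 407 and 250.1 CPM in the nonirradiated and 507, 462 and 502 CPM in the irradiated samples (log2 0.70, SE 0.13).

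**Figure D2:**
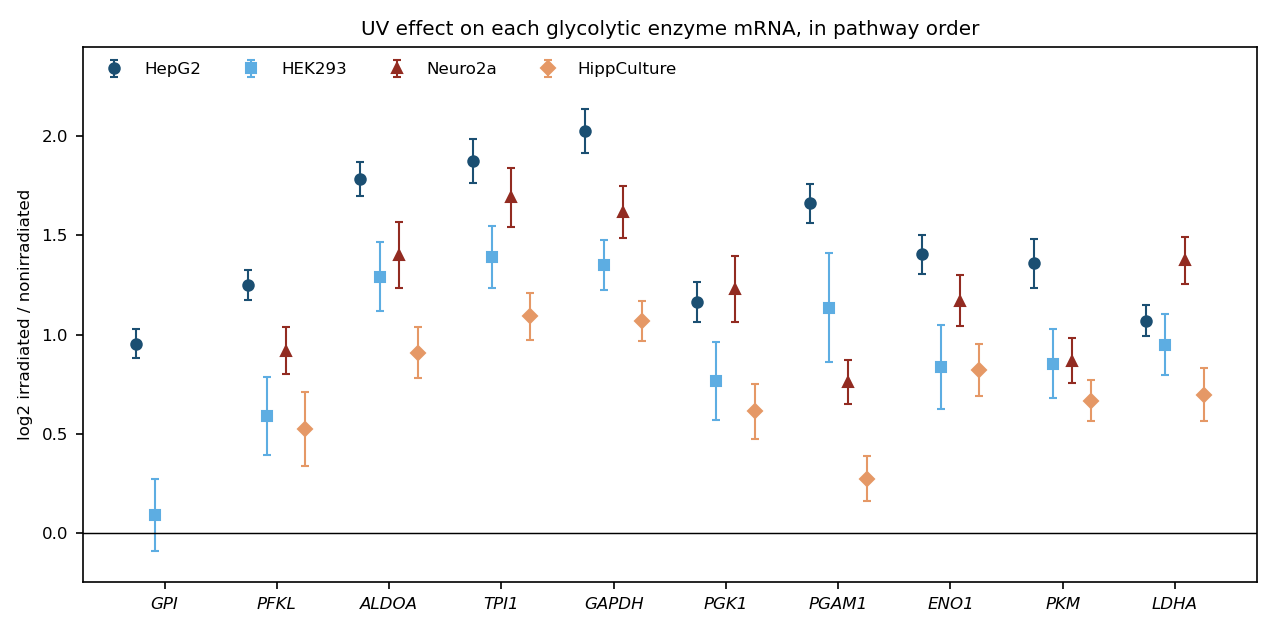
Log2 change upon irradiation of each glycolytic enzyme mRNA with TMM scaling, in pathway order, for HepG2 (circles), HEK293 (squares), Neuro2a (triangles) and HippCulture (diamonds), with bars of 1 SE from 3 against 3 samples. GAPDH and TPI1 are the highest members in each cell type, and GPI in HEK293 lies near 0 at 0.09. With library size alone all points are lower and 12 of the 38 lie below 0.

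The nonirradiated replicate 2 of HippCulture held more of every member than the other nonirradiated samples. The members took 0.406% of its counts, against 0.259% and 0.235% in replicates 1 and 3. Neuron, astrocyte and oligodendrocyte markers summed, without TMM, to 3520, 672 and 34.0 CPM in it, against 3260 to 3660, 572 to 650 and 24.6 to 27.3 CPM in the other nonirradiated samples, and the part of these cells in the difference was not tested. Without that sample all 9 members were called higher, the median log2 change was 1.00, Gapdh changed by 1.24 (SE 0.10), Tpi1 by 1.34 (SE 0.10) and Pgam1 by 0.50 (SE 0.10). Without nonirradiated replicate 1 or 3 instead, 7 members were called higher.

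Each member was also set against GAPDH within its own sample, which removes the scaling. The log2 ratio to GAPDH lay lower in the irradiated samples, without overlap, for 9 of 9 other members in HepG2, 5 of 9 in the other human line, 7 of 8 in Neuro2a and 6 of 8 in HippCulture, and higher without overlap for none. The reference GAPDH had been seen to rise beforehand, and stood at percentiles 96.2, 92.8, 94.3 and 93.2 of the changes of protein-coding genes. Most such genes changed less than GAPDH, so a fall against it is not particular to the members. The share of all genes was not counted, and these counts and those within pairs are only a description. GPI fell furthest behind, by a mean of −1.08 in HepG2 and −1.25 in HEK293. The mean ratio of PFKL to GAPDH changed by −0.78, −0.75, −0.69 and −0.46. For TPI1 the ratio changed by −0.15 in HepG2, where the groups did not overlap, and by 0.05, 0.08 and 0.04 in HEK293, Neuro2a and HippCulture, where they did. ALDOA changed against GAPDH by −0.25 in HepG2 and −0.23 in Neuro2a, with no overlap, and by −0.06 in HEK293 and −0.14 in HippCulture, with overlap. The ratios of ENO1 and PGAM1 overlapped as well in HEK293. Within the HEK293 pairs of equal replicate number, a comparison chosen after seeing the data, the ratio was lower in the irradiated sample of every pair for 8 of 9 members, with −0.55, −0.46 and −0.48 for ENO1 and −0.22, −0.12 and −0.25 for PGAM1, and higher in every pair for TPI1. GAPDH itself went from 25.3%, 24.1%, 4.60% and 7.41% of the members' counts in nonirradiated samples to 33.6%, 30.2%, 6.09% and 9.14% in irradiated ones.

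The enzymes of glycolysis that were not members, tissue-specific isoforms in the main, did not share one direction. Of 15 tested in HepG2, 8 were called higher and 4 lower, with a median log2 change of 0.32. HEK293 had 6 higher and 3 lower of 15 (median 0.23), Neuro2a 8 and 2 of 18 (0.54), and HippCulture 6 and 4 of 18 (0.04). With library size alone, 2, 2, 0 and 2 were called higher and 11, 8, 10 and 9 lower. The medians of all genes tested were then −1.38, −0.84, −1.32 and −0.59, and the share of all genes called lower was not counted. With TMM the medians of all genes tested were −0.08, −0.08, −0.14 and −0.04, and 40.7%, 26.4%, 33.0% and 25.9% of all genes were called lower. With the replicate number as a block, 5 rather than 3 enzymes were called lower in HEK293, where the numbers were taken to pair the samples. Without HippCulture nonirradiated replicate 2, 9 were called higher and 3 lower in HippCulture.

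ALDOC is the aldolase of brain. It rose by 1.72 in HepG2 (SE 0.09, adjusted p = 4.9e-07 by edgeR), from 36.1 ± 3.82 to 119 ± 5.38 CPM (mean ± SD, n = 3). It rose by 1.34 in HEK293 (SE 0.38, adjusted p = 0.017), by 1.14 in Neuro2a (SE 0.19, adjusted p = 0.00015, −0.06 with library size alone) and by 1.17 in HippCulture (SE 0.08, adjusted p = 5.6e-10). BPGM, which makes 2,3-bisphosphoglycerate, rose by 1.11, 0.64, 0.69 and 0.81 in the same order, with adjusted p-values of 9.2e-05, 0.0070, 0.0015 and 1.8e-06, and stood at −0.19, −0.12 and −0.50 in HepG2, HEK293 and Neuro2a with library size alone.

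Isoforms of the same step did not always share a call. Among enolases, ENO3, the muscle form, rose by 1.81 in HepG2 (SE 0.07, adjusted p = 2.6e-07), by 1.36 in HEK293 (SE 0.21, adjusted p = 0.00068) and by 0.94 in Neuro2a (SE 0.18, adjusted p = 0.00047, −0.25 with library size alone), and was at −0.16 (SE 0.30) in HippCulture. ENO2, the neuronal form, had log2 changes of 0.03, 0.13, 0.00 and 0.03, none past the threshold, and of −1.27, −0.61, −1.19 and −0.53 with library size alone. The retrogene Eno1b rose by 1.30 in Neuro2a (SE 0.13, adjusted p = 1.3e-06) and was below the filter in HippCulture. Reads of Eno1 and Eno1b, near-identical copies, may have been divided between them.

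Among hexokinases, HK2 fell by 0.73 in HepG2 (SE 0.12, adjusted p = 0.00055) and by 0.92 in Neuro2a (SE 0.10, adjusted p = 2.8e-06). HK2 had −0.38 (SE 0.15, adjusted p = 0.055) in HEK293, and −0.37 with an adjusted p = 0.00017 with the replicate block. In HippCulture Hk2 was at 6.29, 46.3 and 5.07 CPM in the nonirradiated and 23.6, 4.83 and 11.6 CPM in the irradiated samples, a change of −0.45 (SE 0.56) that turned to 1.33 (adjusted p = 0.00093) without nonirradiated replicate 2. HK1 rose by 0.93 in HepG2 (SE 0.14, adjusted p = 0.00027) and by 0.33 in Neuro2a (SE 0.10, adjusted p = 0.0098), changes of −0.37 and −0.86 with library size alone. In HEK293 HK1 had 0.27 (SE 0.13, adjusted p = 0.11, and 0.0018 with the replicate block), and −0.50 with library size alone.

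The other phosphofructokinase subunits were described alike. The muscle form PFKM was at −0.09 in HepG2 and 0.16 in HEK293, neither past the threshold, and Pfkm rose by 0.87 in Neuro2a (adjusted p = 1.8e-05) and by 0.55 in HippCulture (adjusted p = 1.2e-05). With library size alone PFKM stood at −1.39, −0.60, −0.33 and −0.01. The platelet form PFKP rose by 1.01 in HepG2 (adjusted p = 0.00018, −0.30 with library size alone) and by 0.61 in HEK293 (adjusted p = 0.0054, −0.15 with library size alone), was at −0.04 in Neuro2a and fell by 0.67 in HippCulture (adjusted p = 1.7e-05).

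Mouse Gpi1, the gene that carries the function of GPI, rose by 1.06 in Neuro2a (SE 0.12, adjusted p = 4.7e-06) and by 0.45 in HippCulture (SE 0.16, adjusted p = 0.023), and stood at −0.14 and −0.12 with library size alone. Its HippCulture value without nonirradiated replicate 2 was 0.83. PGAM2, the muscle mutase, fell by 2.29 in HepG2 (SE 0.27, adjusted p = 5.6e-05) and by 2.04 in HEK293 (SE 0.39, adjusted p = 0.0022), at nonirradiated means of 1.66 and 5.57 CPM. LDHB, the lactate dehydrogenase subunit of heart, rose by 1.16 in HEK293 (SE 0.14, adjusted p = 0.00023) and by 0.99 in HippCulture (SE 0.08, adjusted p = 6.8e-09), and had no count in any HepG2 sample.

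**Figure D3:**
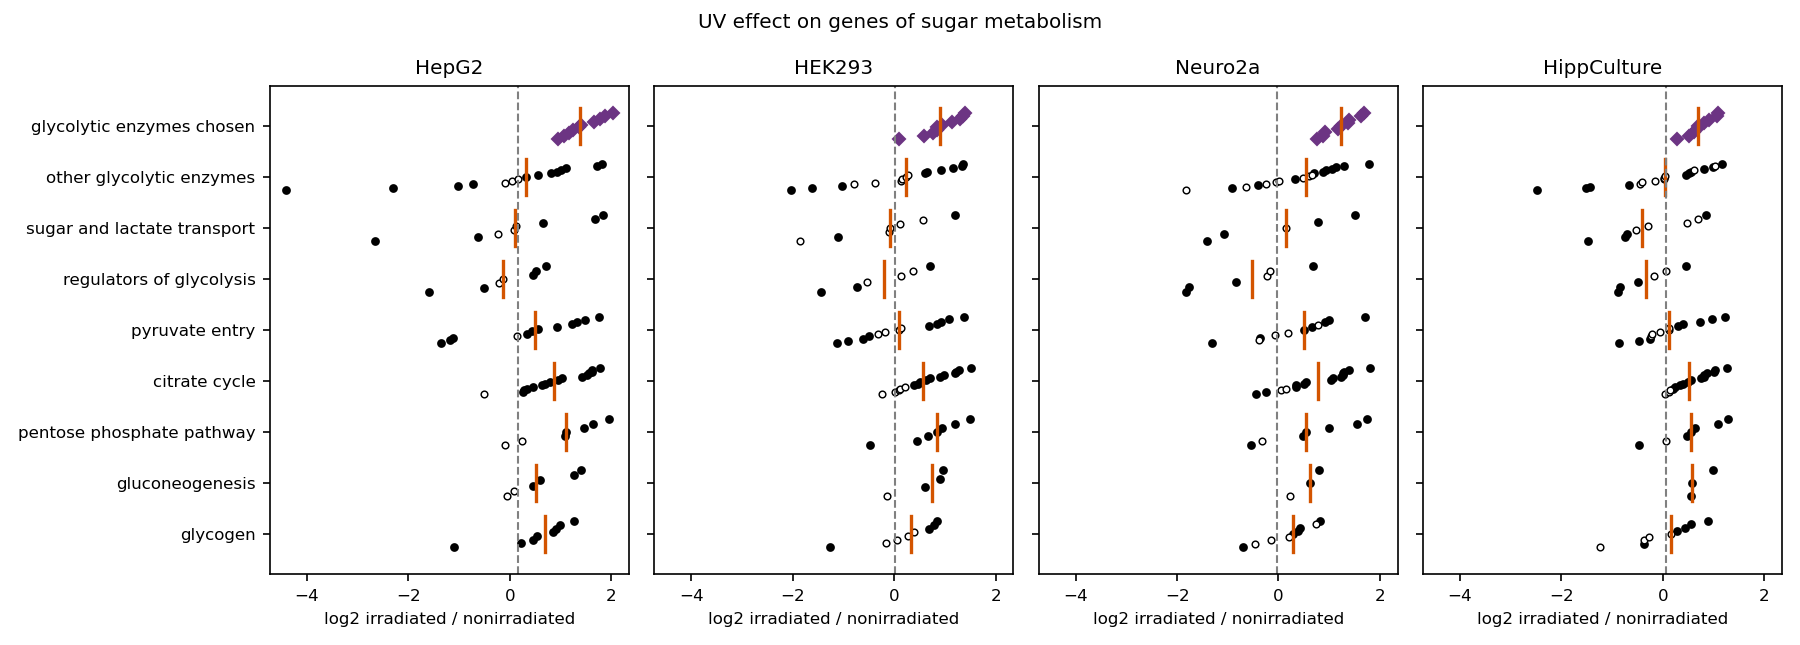
Log2 change upon irradiation with TMM scaling for the chosen glycolytic enzymes (purple diamonds) and 8 further lists of sugar metabolism, with a point per gene, filled where the edgeR adjusted p was under 0.05, an orange bar at the list's median and a dashed line at the median of protein-coding genes. The chosen enzymes lie right of the dashed line in all 4 panels, the other glycolytic enzymes lie on both sides, and with library size alone the medians of all genes move left by 1.30 (HepG2), 0.76 (HEK293), 1.18 (Neuro2a) and 0.54 (HippCulture).

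The pathways around glycolysis were described from lists that, like the members, were made with earlier results known. Their counts with library size alone have no share of all genes beside them and cannot be set against a background. The citrate cycle had 15, 11, 12 and 13 of 16 genes called higher in HepG2, HEK293, Neuro2a and HippCulture and 0, 0, 2 and 0 called lower, with medians of 0.87, 0.57, 0.78 and 0.52, but with library size alone 5, 4, 1 and 3 were called higher and 10, 6, 8 and 3 lower. The counts of 0 also held at an unadjusted p under 0.05, and the DESeq2 test called 1 gene lower in HepG2 and none in HEK293 or HippCulture. SDHB, the iron-sulfur subunit of succinate dehydrogenase, rose by 1.78, 1.51, 1.81 and 1.27, with adjusted p-values of 8.6e-07, 0.00027, 3.5e-09 and 1.1e-09. The pentose phosphate pathway, which branches off at glucose 6-phosphate, had 5, 6, 5 and 5 of 7 genes called higher and 0, 1, 1 and 1 lower, and 2 higher in each and 2, 1, 4 and 2 lower with library size alone. Its lactonase PGLS rose by 1.95, 1.50, 1.75 and 1.28, and its transaldolase TALDO1 by 1.63, 1.20, 1.55 and 1.09.

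Genes for transport and control of glycolysis were called in both directions. Of the sugar and lactate transporters tested, 3 of 8, 1 of 7, 2 of 5 and 1 of 8 were called higher and 2, 1, 2 and 3 lower, against 2, 1, 1 and 0 higher and 6, 3, 4 and 4 lower with library size alone. Without HippCulture nonirradiated replicate 2, 3 of 7 were called higher there. SLC16A1, a monocarboxylate carrier, fell by 0.64, 1.10, 1.41 and 0.74, with adjusted p-values of 0.00035, 0.00029, 2.5e-06 and 4.5e-06. Its chaperone BSG (basigin) rose by 1.85, 1.19, 1.51 and 0.84, with adjusted p-values of 3e-07, 0.00012, 3.5e-07 and 3.4e-07. SLC16A3, the lactate exporter of glycolytic cells, rose by 1.67 in HepG2 (adjusted p = 9.6e-07) and by 0.78 in Neuro2a (adjusted p = 9e-06, −0.42 with library size alone). HIF1A, a transcription factor that activates glycolytic genes, fell by 0.50, 0.73, 1.82 and 0.89, with adjusted p-values of 0.00074, 0.025, 4.8e-09 and 3.6e-08. PFKFB2, a kinase and phosphatase that sets the activator of phosphofructokinase, fell by 1.59, 1.45, 1.76 and 0.85.

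The list of regulators as a whole had 3, 1, 1 and 1 genes called higher and 2, 2, 3 and 3 lower, of 7, 6, 6 and 6 tested, and 0 higher, at an adjusted or unadjusted p, and 7, 4, 5 and 4 lower with library size alone. In HippCulture 2 were higher without nonirradiated replicate 2. Of the genes for the entry of pyruvate into mitochondria, 8, 5, 5 and 5 were called higher and 3, 4, 2 and 3 lower, of 12, 13, 11 and 13 tested, against 1 higher in each and 8, 8, 8 and 7 lower with library size alone. The pyruvate carrier subunit MPC2 rose by 1.75, 1.38, 1.70 and 1.23, while the phosphatase subunit PDP2 fell by 1.36, 0.92, 1.31 and 0.87. Gluconeogenesis had 4 of 6, 3 of 4, 2 of 3 and 3 of 3 genes called higher, but 0, 0, 0 and 1 higher and 4, 0, 3 and 0 lower with library size alone. Glycogen metabolism had 7 of 8, 3 of 8, 4 of 9 and 4 of 9 genes called higher and 1 lower in each cell type, but with library size alone none were higher, at an adjusted or unadjusted p under 0.05, and 7, 4, 7 and 4 were lower.

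The change upon irradiation was also compared between the cell types of a species, as a description for the members. In human cells the difference of HepG2 from HEK293 ran above 0 for every member with TMM scaling, by 0.76 (SE 0.20) for GPI, 0.57 (SE 0.18) for GAPDH, 0.56 (SE 0.22) for PFKL and 0.02 (SE 0.18) for LDHA, and below 0 for 6 of 10 members with library size alone, where GPI had 0.33, GAPDH 0.13 and LDHA −0.42. With TMM and a replicate block it was 0.76 (SE 0.13) for GPI, 0.58 (SE 0.17) for GAPDH, 0.55 (SE 0.12) for PFKL, 0.41 (SE 0.13) for PGAM1 and 0.02 (SE 0.13) for LDHA. Of all genes, 7.95% differed between the human lines and 24.5% between the mouse cells. In mouse cells the difference of Neuro2a from HippCulture ran above 0 for every member, from 0.19 (SE 0.17) for Pkm to 0.67 (SE 0.21) for Ldha, with 0.54 (SE 0.18) for Gapdh and 0.59 (SE 0.21) for Tpi1. With library size alone it lay below 0 for 8 of 9 members, at −0.09 for Gapdh and −0.04 for Tpi1, and at 0.04 for Ldha. The median difference of all genes tested was 0.09 in human and −0.14 in mouse with TMM. It was −0.34 and −0.775 with library size alone, so a value below 0 there can lie above that of most genes. Without HippCulture nonirradiated replicate 2 the differences of Gapdh and Tpi1 were 0.40 (SE 0.18) and 0.38 (SE 0.20), that of Ldha was 0.40 (SE 0.17) and that of Pfkl changed from 0.38 to −0.05.

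Levels in nonirradiated cells were not used to choose the members and were tested between cell types. Of the 10 members, 5 were higher in HepG2 than in HEK293 and 2 were lower, where 37.6% and 38.1% of all genes tested were called in these directions. The CPM here are scaled over the nonirradiated samples alone and differ from those above. PGAM1 was 4.40-fold higher in HepG2 (log2 2.14, SE 0.23, adjusted p = 5.9e-06), at 312, 395 and 378 CPM against 115, 69.4 and 62.7 CPM. LDHA was 3.15-fold higher (log2 1.66, SE 0.16, adjusted p = 3e-06), ALDOA 2.85-fold (log2 1.51, SE 0.17, adjusted p = 1.1e-05) and PGK1 1.51-fold (log2 0.59, SE 0.17, adjusted p = 0.0093).

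GAPDH was 1.34-fold higher in HepG2, at 2623, 3195 and 3105 CPM against 2158, 2343 and 2145 CPM (log2 0.43, SE 0.17, adjusted p = 0.044), and −0.02 with library size alone. This call was lost without HepG2 nonirradiated replicate 2 (0.37) or 3 (0.39) and without HEK293 nonirradiated replicate 2 (0.50) or 3 (0.43), and that of PGK1 without HepG2 nonirradiated replicate 2 (0.51). PFKL was 1.62-fold lower in HepG2 (log2 −0.69, SE 0.17, adjusted p = 0.0035) and GPI 1.51-fold lower (log2 −0.59, SE 0.17, adjusted p = 0.0077). The log2 differences of ENO1 (−0.17, SE 0.21), PKM (−0.21, SE 0.20) and TPI1 (0.08, SE 0.18) did not pass the threshold. When scaled by library size alone, ENO1 (−0.61, adjusted p = 0.015 by edgeR) and PKM (−0.64, adjusted p = 0.0086) were called lower in HepG2 and PGK1 was no longer called (0.15, adjusted p = 0.45), while PFKL had −1.13, GPI −1.03 and TPI1 −0.35. The median difference of all genes tested was then −0.45, against −0.01 with TMM. As the share of all genes called was not counted, these calls are not particular to the members. LDHB was at least 9886-fold lower in HepG2 than in HEK293, taking 3 counts per library as the floor for its 0 counts.

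All 9 mouse members were higher in Neuro2a than in HippCulture, where 39.0% of all genes tested were called in that direction. The difference ran from 1.68-fold for Pgam1 (log2 0.75, SE 0.12, adjusted p = 2.7e-05) to 4.56-fold for Eno1 (log2 2.19, SE 0.14, adjusted p = 9.7e-11). Gapdh was 2.10-fold higher (log2 1.07, SE 0.11, adjusted p = 4.4e-08), at 421, 524 and 491 CPM against 205, 271 and 207 CPM. Ldhb went the other way, at no more than 0.128 CPM in Neuro2a against 82.7 to 89.8 CPM in HippCulture.

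**Figure D4:**
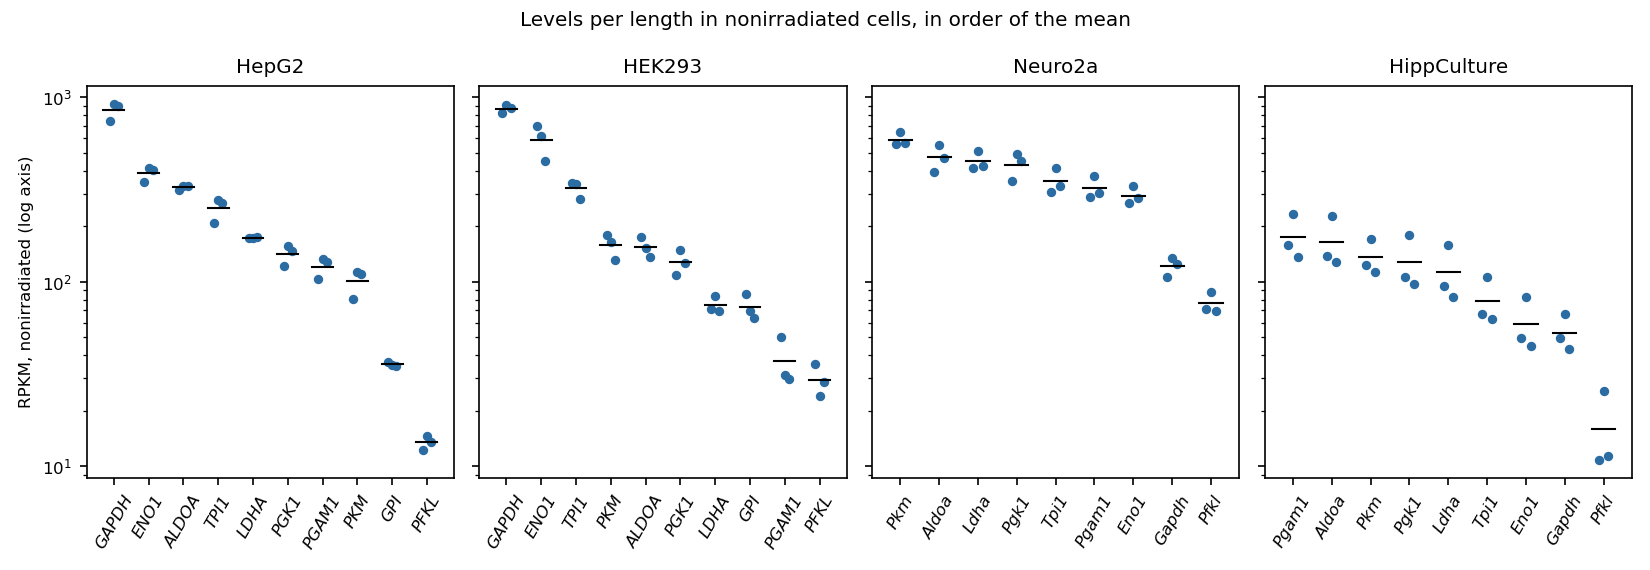
CPM per kilobase of exon (RPKM, log axis) of each glycolytic enzyme mRNA in the 3 nonirradiated samples of each cell type (points) with their mean (line), ordered by the mean. GAPDH leads in HepG2 and HEK293, at 857 and 866 RPKM, and is next to last in both mouse cell types, at 122 and 53.0 RPKM. The order rests on the listed exon lengths, which exceed the annotated transcripts unequally (4133 against 1273 bases for mouse Gapdh).

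Per length, GAPDH had the highest level of the members in human cells, at 857 ± 95.8 RPKM in HepG2 and 866 ± 44.4 RPKM in HEK293 (mean ± SD, n = 3). ENO1 followed at 388 ± 36.5 RPKM in HepG2 and 590.3 ± 126 RPKM in HEK293, without overlap with GAPDH. PFKL was lowest, at 13.4 ± 1.21 RPKM and 29.5 ± 6.07 RPKM. In HepG2, PGAM1 and PKM overlapped with the gene above them in the order, and in HEK293 ALDOA, PGK1, GPI and PFKL did. In Neuro2a the order ran from Pkm at 589 ± 49.2 RPKM over Aldoa, Ldha, Pgk1, Tpi1, Pgam1 and Eno1, each from Ldha on overlapping with the gene above, to Gapdh at 122 ± 14.2 RPKM and Pfkl at 76.4 ± 9.97 RPKM. In HippCulture, Pgam1, Aldoa, Pkm, Pgk1, Ldha, Tpi1, Eno1 and Gapdh followed each other with overlaps, from 176 ± 50.7 to 53.0 ± 12.3 RPKM, and Pfkl was last at 15.9 ± 8.35 RPKM. The exon length listed for mouse Gapdh was 4133 bases, against 1273 bases for its annotated transcript, which lowers its RPKM. Other members were affected unequally, such as Eno1 (5379 against 2027 bases), Pgam1 (1831 against 1775), human PKM (8571 against 2305) and human PGK1 (5512 against 4812). These orders hold for the listed exon lengths only, and an order by transcript length was not made.

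Members were also described by features of their annotated transcript, taking 1 transcript for each gene. The median transcript of the members was shorter than that of the tested protein-coding genes, at 2021.5 bases against 3268 and 3346 bases in HepG2 and HEK293 and at 1815 bases against 2898 and 2999 bases in Neuro2a and HippCulture. Of the members, 8 of 10 in human and 8 of 9 in mouse were shorter than those medians. GAPDH and TPI1 were the shortest human members, at 1285 and 1351 bases, and PGK1 and GPI the longest, at 4812 and 4125 bases. The 3′ UTR had a median of 596 bases in human members, against 1268 and 1293.5 bases, and of 488 bases in mouse members, against 912 and 974 bases.

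Shorter members had the larger change. Across the members, Spearman's rho between transcript length and log2 change was −0.89 in HepG2 and −0.88 in HEK293 (n = 10 genes) and −0.68 in Neuro2a and −0.62 in HippCulture (n = 9 genes), as a description over genes that share libraries and are not independent replicates. Over all tested protein-coding genes with a transcript, rho was −0.61, −0.64, −0.59 and −0.55. Uridine content of the transcript gave −0.53, −0.20, −0.10 and −0.50 across members and −0.40, −0.44, −0.39 and −0.46 across all genes. GAPDH had 20.9% uridines in the human transcript, PGK1 29.9% and PFKL, with a smaller change than most, 17.9%. The part of length or uridines in the change was not tested.

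**Figure D5:**
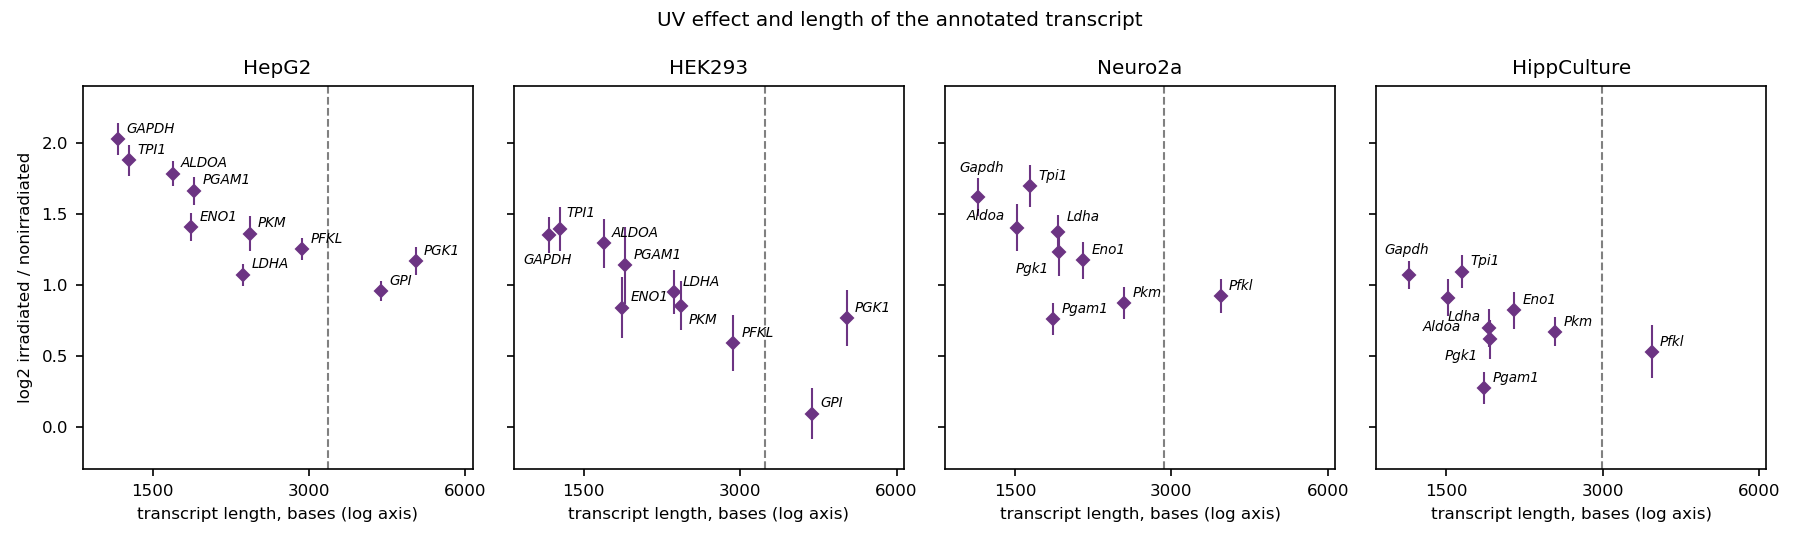
Log2 change upon irradiation with TMM scaling (bars of 1 SE) against the length of the annotated transcript in bases (log axis) for each glycolytic enzyme mRNA, with a dashed line at the median length of tested protein-coding genes. GAPDH and TPI1 lie at the upper left and the long PGK1, GPI and Pfkl at the lower right. With library size alone 12 of the 38 points of all panels fall below 0, some of them left of the dashed line.

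The genes whose changes over the 4 cell types were most like those of GAPDH were sought among 9581 symbols tested in all of them, by the Euclidean distance of the log2 changes. ERGIC3, of the secretory pathway (distance 0.12), POMP, a proteasome assembly factor (0.13), MRPS33, a mitochondrial ribosomal protein (0.14), the noncoding DANCR (0.14) and SNAPC2, of snRNA transcription (0.14), were nearest. TPI1 was nearest among the members, at rank 15 with a distance of 0.18, followed by ALDOA at rank 150 and ENO1 at rank 1018, and PFKL was last at rank 1709.

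Reads on overlapping genes were counted for each of them, without strand in the counting command. ALDOA shares 1657 exon bases with a same-strand gene, ENSG00000285043, whose count reached 99.6% of the ALDOA count, so that these genes cannot be told apart. GAPDH shares 422 exon bases with the opposite-strand lncRNA ENSG00000269968, whose count reached 43.9% of the GAPDH count. GPI shares 542 exon bases with ENSG00000266953 (22.6%), Pkm 767 with Gm49759 (16.3%) and Gapdh 68 with Iffo1 (10.7%). PFKL, PGAM1, PKM and LDHA shared no exon base with another gene in human.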

How the data were processed

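RNA-seq libraries were made from the aqueous phase of heated TRIzol extracts after removal of rRNA (Ribo-Zero). The deposited values are read counts per gene, which the authors made with TopHat2 2.1.1 on hg38 or mm10 and featureCounts (1.5.3 for HepG2, 1.6.1 otherwise; exons of GENCODE 28 or M17, overlapping genes each counted). The count commands name no option for strand, pairs or reads with several matches. The labels name a stranded kit and the study's methods an unstranded one. Gene names came from GENCODE 44 and M21, which matched 99.0% of human and 99.82% of mouse identifiers.

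Counts of a cell type were fitted without the others by edgeR 4.0.16 (R 4.3.3; TMM, quasi-likelihood test, Benjamini-Hochberg adjusted p under 0.05) over all genes with a mean of at least 0.5 CPM in nonirradiated samples. The fold change's SE is the log2 change over the square root of F. Differences between cell types were tested as an interaction over 12 samples and as levels of nonirradiated samples. RPKM used the listed exon lengths, and tables and figures were made with Python 3.11.15, pandas 2.3.3, scipy 1.17.1 and matplotlib 3.10.9. Alternatives were DESeq2 1.42.0, its size factors, library size alone, other filters, a replicate block and leaving out each sample, and the tests were tried on simulated data first.

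The members, lists and tests were chosen with earlier results of these data known. The genes open to naming were the members, any tested enzyme of the other glycolytic list, the 2 largest called changes in each direction per further list and cell type (groups not overlapping, nonirradiated mean of at least 5 CPM), and the 5 genes closest to GAPDH. A gene that this rule names is not reported here. Replicate numbers were taken to pair samples in HEK293, from the data, since same-numbered samples deviated together (correlations of 0.59, 0.30 and 0.39), and not in the other cell types. The correlations were 0.23, 0.08 and 0.11 in Neuro2a, 0.13, 0.06 and 0.05 in HippCulture and 0.04, 0.03 and −0.01 in HepG2. Pairing in these cell types was not assumed, and it is not excluded. The main fits did not use the HEK293 pairs, and the replicate block is an alternative to them. Counts of 6910907 to 53511592 per sample set the precision, and floors cover counting error only. Probe letters came from the study's primer lists.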

Additional observations from a re-analysis of the deposited data

Results flagged for a closer look

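Among the glycolytic enzymes outside the chosen set, 5 had a change upon irradiation that differed between the cell types of a species by edgeR's interaction test. In human, where 7.95% of all genes tested differed, HK1 differed by 0.56 (SE 0.15, adjusted p = 0.036), with 0.93 in HepG2 and 0.27 in HEK293, but by 0.13 (adjusted p = 0.66) with library size alone. PKLR, the pyruvate kinase of liver and red cells, differed by 2.34 (SE 0.38, adjusted p = 0.0019), with 0.82 in HepG2 and −1.62 in HEK293, and by 1.90 with library size alone. ENO4 differed by −3.69 (SE 0.78, adjusted p = 0.011) and rested on 0, 1 and 3 counts in irradiated HepG2. In mouse, where 24.5% of all genes differed, Pfkp differed by 0.62 (SE 0.16, adjusted p = 0.0088), with −0.04 in Neuro2a and −0.67 in HippCulture, but by −0.02 with library size alone. Eno3 differed by 1.09 (SE 0.35, adjusted p = 0.026), and by 0.44 (adjusted p = 0.32) with library size alone. The median difference of all genes tested with library size alone was −0.34 in human and −0.775 in mouse. Without HippCulture nonirradiated replicate 2, the values were 0.55 for Pfkp (adjusted p = 0.026) and 1.22 for Eno3 (adjusted p = 0.024). The call of HK1 was lost in 7 of 12 fits that each left out 1 sample and that of Eno3 in 3 of 12.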

How the results depend on the processing

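Scaling by library size alone turned 12 of the 38 member values below 0. The members called higher became 4, 3, 2 and 2 and their medians 0.0742, 0.140, 0.0265 and 0.133 in HepG2, HEK293, Neuro2a and HippCulture, and the other glycolytic enzymes became 2, 2, 0 and 2 higher and 11, 8, 10 and 9 lower. It turned the sign of the HepG2 changes of PGK1 (−0.14), LDHA (−0.23), PFKL (−0.0558), GPI (−0.35), HK1 (−0.37), PFKP (−0.30), BPGM (−0.19), ENO2 (−1.27) and PKLR (−0.49), and in HEK293 of PFKL (−0.18), GPI (−0.68), HK1 (−0.50), PFKM (−0.60), PFKP (−0.15) and BPGM (−0.12). In Neuro2a it turned Eno1 (−0.0286), Pkm (−0.33), Pgam1 (−0.44), Pfkl (−0.28), Hk1 (−0.86), Pfkm (−0.33), Aldoc (−0.0628), Bpgm (−0.50), Eno2 (−1.19), Eno3 (−0.25), Gpi1 (−0.14), Slc16a3 (−0.42) and Mpc1 (−0.20), and in HippCulture Pfkl (−0.0426), Hk1 (−0.54), Pfkm (−0.0132), Gapdhs (−0.0250), Eno2 (−0.53) and Gpi1 (−0.12). It also turned the nonirradiated difference of GAPDH (−0.0159), where 3 members were then higher and 4 lower in HepG2, and the mouse differences of Gapdh (−0.0881), Tpi1 (−0.0396) and Pfkp (−0.0173). The median of all genes was then −0.453 for the nonirradiated human difference and −0.775 for the mouse difference in change upon irradiation. The share of all genes called was not counted. The HepG2 median was 1.31 with DESeq2 size factors and with the DESeq2 test, 1.11 with at least 10 counts in every sample and 1.33 with no filter. In HippCulture, 1 other enzyme was called lower by the DESeq2 test and 1 with at least 10 counts, where the median was 0.61. The human differences called among other enzymes were 0 with at least 10 counts, with 10 tested, and the mouse ones 4 with DESeq2 size factors, 5 with library size alone and 4 with no filter. The replicate block, used beside the results only in HEK293 and for human differences of members, gave 5 other enzymes lower in HEK293, 5 human differences, 6 mouse differences and a HippCulture median of 0.74, and the numbers were not taken to pair the samples of the other cell types. Leaving out 1 sample gave HepG2 medians of 1.213 to 1.418 (lowest without nonirradiated replicate 1), 1 to 3 other enzymes lower in Neuro2a (1 without irradiated replicate 2 or nonirradiated replicate 3), 1 to 4 in HippCulture (1 without irradiated replicate 3) with medians of 0.61 to 1.00, 3 to 5 members higher in nonirradiated HepG2 (3 without HepG2 replicate 2) and 1 to 5 mouse differences (1 without HippCulture irradiated replicate 1 or Neuro2a irradiated replicate 2, 5 without Neuro2a irradiated replicate 1). Hk2 in HippCulture ran from −1.12 without irradiated replicate 1 to 1.33 without nonirradiated replicate 2. PFKL in HEK293 lost its call without irradiated replicate 1 or nonirradiated replicate 2 or 3, and Pfkl in HippCulture without irradiated replicate 1 or 3 or nonirradiated replicate 1 or 3. A value called under neither of the settings compared was not counted as turned, whatever its sign. The cause of these shifts was not tested. Of single values under all alternatives, 3039 kept their side and direction, 126 lost and 47 gained a call, 126 moved and 39 turned. Depth limits the rarest isoforms, such as ENO4 and PKLR.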
